A study of Mus musculus with 12 samples.

Results

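The chromatin response of graft-derived brain macrophages to lipopolysaccharide (LPS), a bacterial endotoxin, was measured by ATAC-seq, in which a transposase cuts accessible DNA and tags it for sequencing. The response was taken as the comparison of CD45.1 cells of LPS-challenged mice with CD45.1 cells of untreated mice, which uses 6 of the 12 libraries of the series (3 against 3, each from 1 mouse). CD45.1 and CD45.2 are 2 forms of the leukocyte antigen CD45. CD45.1 cells derived from grafted bone marrow (BM), and CD45.2 cells were the microglia of the recipient. The mice were labelled wild type on the C57BL/6J background, and both groups had received 950 cGy of irradiation and a BM graft. Intervals of 3.5 and 9 months after the graft are named in the labels but not assigned to mice, and the study describes the longer one for its ATAC-seq. Mice 1, 2 and 3 were given LPS at 2.5 mg/kg and killed after 12 h. Mice 4, 5 and 6 were not injected, so the control held no vehicle injection. Both populations were sorted from the same brains, by a gate (CD11b+ CD45lo, Ly6C/G-) that leaves out neutrophils and Ly6C+ monocytes. Irradiation and grafting were shared by all groups, and the recipients still held host microglia.

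The authors called, merged and counted peaks separately in the untreated and in the challenged mice, so treatment and peak table go together and cannot be told apart. A peak of one table was paired with a peak of the other if each covered at least 50% of its partner. There were 39390 pairs, which took in 65.3% of the 60288 untreated peaks and 71.7% of the 54953 peaks found after LPS. The 20898 untreated and 15563 LPS peaks without a partner, which include any peak found under 1 condition only, were not analysed here. Of the pairs, 38023 exceeded 10 tags in 1 or more of the 6 libraries and were tested, at 14538 genes. A peak is named by the gene whose transcription start site lay nearest in the authors' annotation, with its distance in bp (negative values are upstream). Nearness does not show that a peak controls the gene. Values are tags divided by DESeq2 size factors (normalized tags). A peak was called opened or closed after LPS where DESeq2's adjusted p was under 0.05 and the difference more than 2-fold, and a log2 fold change is that of LPS over untreated.

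LPS is sensed by Toll-like receptor 4 with its partners CD14 and MD-2. The receptor signals to NF-kappaB, to kinases that activate the AP-1 factors of the Fos and Jun families, and to interferon regulatory factors. In macrophages these factors act largely at enhancers away from promoters, where accessible DNA is commonly bound by the lineage factor PU.1. The same signals induce their own inhibitors, and a systemic challenge also raises adrenal glucocorticoids.

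Of the 10 opened peaks with the smallest adjusted p, 4 that lay outside promoters are printed below with 2 opened peaks near Nfkbia and Ctsl. They are followed by 2 closed peaks, to set the DNA that gained accessibility beside DNA that lost it. Nfkbia encodes the NF-kappaB inhibitor I-kappaB-alpha and Ctsl the lysosomal protease cathepsin L. Each sequence is the 200 bp around the centre of the LPS peak, on the plus strand of the mouse build mm9, and no window overlapped an exon of GENCODE vM1. Capitals mark matches, on either strand, to AP-1 (TGANTCA), CEBP (TTGCNNAA), the kappaB consensus or PU.1 (GAGGAAGT). The first 6 windows are from opened peaks.
Tmem260 peak at -23937 bp, chr14:49041762-49041961: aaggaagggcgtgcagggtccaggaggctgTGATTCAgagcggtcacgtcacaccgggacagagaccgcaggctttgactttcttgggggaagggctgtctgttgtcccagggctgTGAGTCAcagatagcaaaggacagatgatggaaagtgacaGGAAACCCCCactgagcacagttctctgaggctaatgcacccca
Smg9 peak at -12221 bp, chr7:25172327-25172526: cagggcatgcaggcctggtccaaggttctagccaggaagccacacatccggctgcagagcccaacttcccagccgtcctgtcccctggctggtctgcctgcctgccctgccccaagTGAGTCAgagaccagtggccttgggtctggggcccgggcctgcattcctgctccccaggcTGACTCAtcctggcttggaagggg
Lyst peak at -51673 bp, chr13:13630904-13631103: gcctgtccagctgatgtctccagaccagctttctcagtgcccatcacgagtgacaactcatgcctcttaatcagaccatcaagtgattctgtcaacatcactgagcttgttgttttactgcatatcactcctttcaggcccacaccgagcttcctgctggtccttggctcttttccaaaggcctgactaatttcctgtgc
Prag1 peak at 70238 bp, chr8:37228021-37228220: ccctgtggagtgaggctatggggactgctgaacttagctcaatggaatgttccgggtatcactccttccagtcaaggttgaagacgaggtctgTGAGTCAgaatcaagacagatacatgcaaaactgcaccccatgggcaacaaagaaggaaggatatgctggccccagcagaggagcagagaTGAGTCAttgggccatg
Nfkbia peak at 26185 bp, chr12:56567350-56567549: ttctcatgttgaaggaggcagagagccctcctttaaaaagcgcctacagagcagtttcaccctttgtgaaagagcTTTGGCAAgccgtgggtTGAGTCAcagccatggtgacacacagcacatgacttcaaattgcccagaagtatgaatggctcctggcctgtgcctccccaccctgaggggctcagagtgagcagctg
Ctsl peak at -27741 bp, chr13:64499470-64499669: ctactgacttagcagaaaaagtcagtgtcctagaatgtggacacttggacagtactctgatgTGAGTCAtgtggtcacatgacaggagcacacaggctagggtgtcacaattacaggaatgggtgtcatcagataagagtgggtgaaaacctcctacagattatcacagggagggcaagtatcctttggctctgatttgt
The next 2 windows are from closed peaks, near the nuclear pore gene Nup160 and the MHC class II gene H2-Ab1.
Nup160 peak at -27082 bp, chr2:90490191-90490390: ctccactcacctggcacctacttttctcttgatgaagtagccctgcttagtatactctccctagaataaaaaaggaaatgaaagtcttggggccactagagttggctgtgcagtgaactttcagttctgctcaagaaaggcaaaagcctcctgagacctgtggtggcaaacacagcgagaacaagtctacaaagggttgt
H2-Ab1 peak at -5458 bp, chr17:34394615-34394814: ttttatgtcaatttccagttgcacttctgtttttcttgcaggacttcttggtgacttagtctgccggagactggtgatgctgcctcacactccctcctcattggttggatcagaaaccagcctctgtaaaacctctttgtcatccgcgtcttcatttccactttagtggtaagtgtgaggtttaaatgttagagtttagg
Of the 6 opened windows, 5 held at least 1 AP-1 match, and Tmem260, Smg9 and Prag1 held 2 each. The Tmem260 window also held a kappaB match and the Nfkbia window a CEBP match. The Lyst window and the 2 closed windows held none of the 4 motifs. These windows were chosen for their values, so the counts are a description.

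Libraries after LPS were shallower, with 3624600 to 4390800 total tags against 8439800 to 8616900 in untreated mice (exact permutation p = 0.1, two-sided, the smallest that 3 against 3 can give). Tags within the peaks called in the same library made up 18.4% ± 3.40 (SD, n = 3) after LPS and 20.7% ± 2.67 in untreated mice (exact permutation p = 0.4). Correlations of log tags between libraries were 0.869 to 0.949 within a treatment and 0.721 to 0.831 between treatments. The macrophage markers among the tested peaks overlapped in summed level between the groups, at 2118 to 2197 normalized tags untreated and 1947 to 2221 after LPS over 49 peaks at all 11 genes. Of these peaks, 1 opened (2.04%, against 6.13% of all tested) and 4 closed (8.16%, against 3.72%). The closed ones were near Cx3cr1, Aif1, Tmem119 and Fcgr3, and the width offset left 1 opened and 1 closed. A bulk library cannot tell fewer cells of a type from less accessible DNA in each cell.

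After LPS, 2331 peaks near 1808 genes opened (6.13% of those tested) and 1413 peaks near 1218 genes closed (3.72%). Most of the landscape moved less, and 84.04% of tested peaks differed by under 2-fold. The median log2 fold change was 1.48 among opened and -1.43 among closed peaks, and 476 opened and 176 closed peaks differed more than 4-fold. The 3 LPS libraries lay wholly above the 3 untreated ones at 98.2% of opened peaks and wholly below at 99.5% of closed peaks. Over all tested peaks the groups lay apart in these directions at 20.5% and 20.4%. At opened peaks the median level went from 17.6 to 53.8 normalized tags, and at closed peaks from 36.01 to 13.01. In the authors' peak lists, 48.99% of opened and 69.4% of all tested peaks were listed in all 3 untreated libraries, and 9.95% and 6.95% in none. Of closed peaks 27.8% were in no LPS list, against 11.2% of all tested peaks. Only peaks with a partner in both tables were tested, so these shares leave out peaks found under 1 condition.

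**Figure D1:**
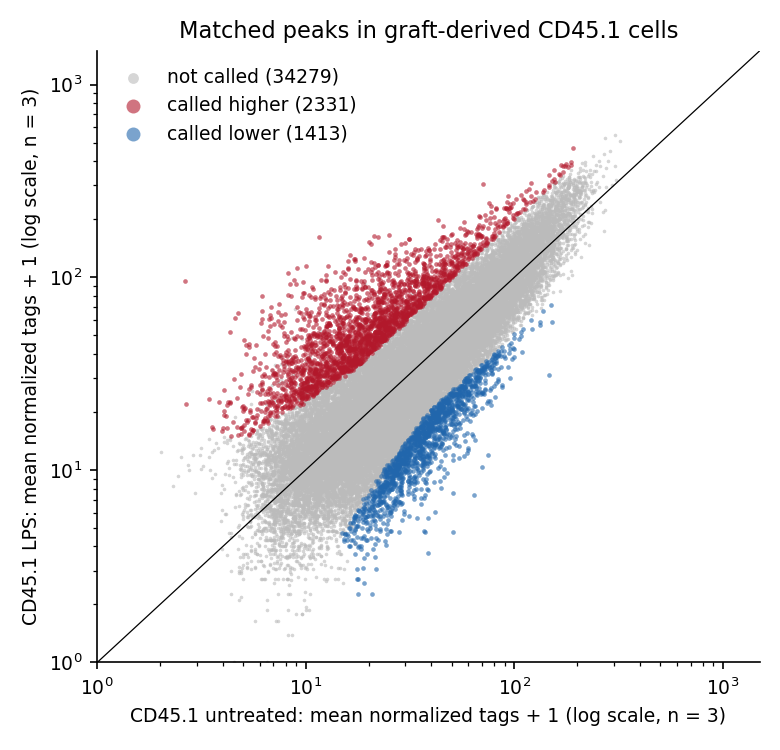
Mean normalized tags of each tested peak in CD45.1 cells of untreated mice (x) and after LPS (y), n = 3 libraries each, both axes logarithmic after adding 1 tag. Coloured points are the 2331 opened and 1413 closed peaks, which lie on either side of the dense diagonal band.

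Closed peaks held a median of 13.01 normalized tags after LPS, where libraries were shallower, and their calls were less stable than the opened ones. Leaving out 1 library at a time left 710 closed peaks without LPS mouse 2, 565 without LPS mouse 3, 577, 611 and 883 without untreated mouse 4, 5 or 6, and 1854 without LPS mouse 1. Opened peaks numbered between 1656 and 2602 in the same fits. The paired peaks also differed in width, with medians of 174 bp in the LPS and 142 bp in the untreated table, and a wider peak collects more tags. With peaks cut into 4 equal classes by width ratio, the class that grew least had 1.94% opened and 9.76% closed peaks, and the class that grew most 13.8% and 0.757%. With peak width as an offset in the model, 1494 of the opened peaks (64.1%) and 543 of the closed peaks (38.4%) were called again, or 3.93% and 1.43% of those tested. A width that follows accessibility and one that follows the peak calling cannot be told apart. Below, the calls that remained with the offset are counted for each gene list, and a named peak that lost its call is marked.

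Opened peaks were mostly away from promoters. Promoter peaks made up 12.01% of opened, 18.3% of closed and 29.3% of the other peaks. Introns held 43.1% and intergenic DNA 41.3% of opened peaks, and their median distance to a start site was 17607 bp against 10449 bp for closed and 7471 bp for the other peaks. Among distal peaks the median GC content of the central 200 bp was alike, 49.5% in opened, 50% in closed and 50.5% in the other peaks.

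The AP-1 sequence set opened peaks apart from the rest most widely of the 13 motifs searched. AP-1 (TGANTCA) was present in the central 200 bp of 40.8% of opened distal peaks, 10.4% of peaks not called and 2.94% of closed ones, and in 12.4% of all distal peaks. Among opened distal peaks also called with the width offset the share was 46.6%. Read the other way, 24.7% of the 3390 distal peaks with AP-1 opened and 1.003% closed, while 5.05% of distal peaks without it opened. The related spacing TGANNTCA, bound by CREB and ATF factors, was in 13.9% of opened and 9.59% of peaks not called. CEBP (TTGCNNAA) came second, in 22.4% of opened, 12.03% of not called and 9.26% of closed distal peaks. Peaks with both sequences opened most often, 34.6% of 451, against 23.1% with AP-1 alone, 10.03% with CEBP alone and 4.33% with neither.

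The kappaB consensus was rarer and differed less in absolute terms, at 6.58% of opened, 3.69% of not called and 1.56% of closed distal peaks. The glucocorticoid response element was found in 0.975% of opened and 0.475% of peaks not called. Closed distal peaks held PU.1 (GAGGAAGT) in 15.4%, against 12.001% of not called and 9.31% of opened peaks. MEF2 sequences, of factors that maintain microglia, were in 3.90% of closed and 2.08% of peaks not called. The CTCF sequence, which marks chromatin loop anchors, was in 7.57% of peaks not called and in 1.12% of opened and 1.56% of closed peaks. At promoters the AP-1 shares were 18.2% of opened, 3.03% of not called and 1.16% of closed peaks. Both strands were searched, matches of different motifs may overlap, and a match is not a bound site.

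**Figure D2:**
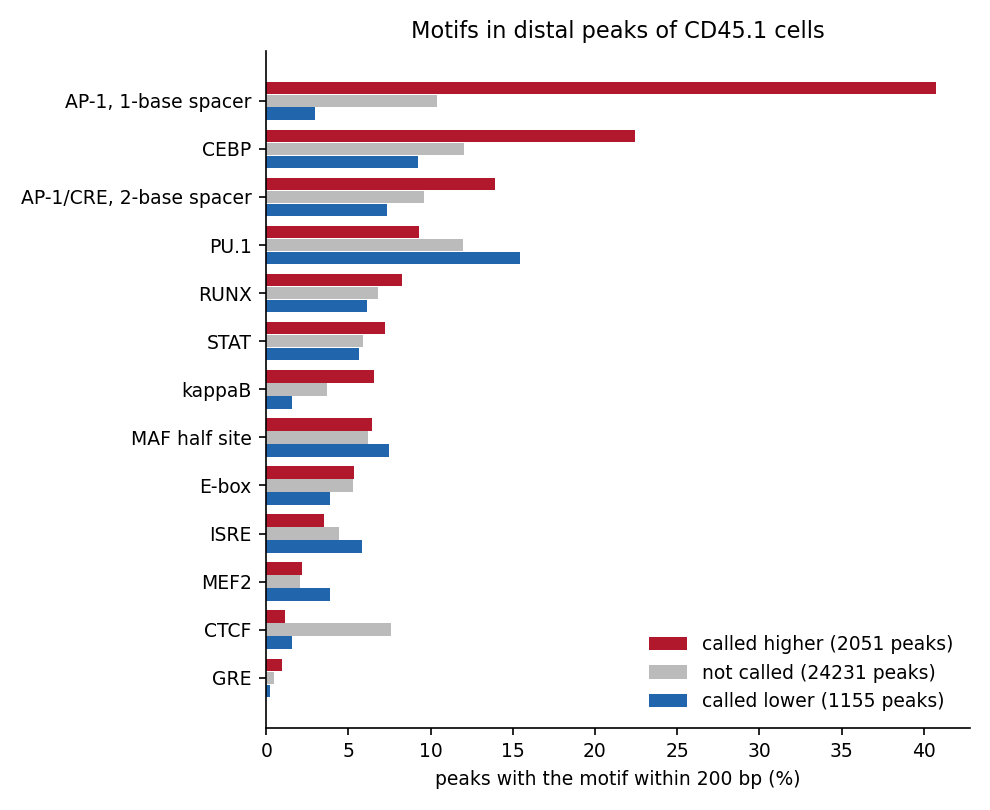
Share of distal peaks of CD45.1 cells (x, %) whose central 200 bp held each motif (y), for opened, not called and closed peaks. AP-1 shows the widest gap, at 40.8% of opened, 10.4% of not called and 2.94% of closed peaks.

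The 10 opened peaks with the smallest adjusted p were taken among calls that held with the width offset and had libraries apart. Of these, 8 lay outside promoters. The Tmem260 peak (-23937 bp, intergenic) held 11.96, 11.1 and 8.72 normalized tags in untreated mice 4, 5 and 6 and 153, 137 and 190.4 in LPS mice 1, 2 and 3. This was a 15.1-fold rise (log2 fold change 3.92 ± 0.29 SE, adjusted p = 7.21e-38). At each of the 10 every LPS library was above every untreated one by that choice. The Smg9 peak (-12221 bp), near a gene of nonsense-mediated RNA decay, rose from 18.9, 15.98 and 29.1 to 141, 172 and 166 (2.92 ± 0.25). The Lyst peak (-51673 bp), near a gene of lysosome traffic, rose from 24.5, 19.7 and 13.1 to 129.6, 166 and 159 (2.97 ± 0.26). In both the groups were far apart relative to the spread within them. The promoter of Zyx, whose product zyxin sits at focal adhesions, was already open at 69.99 ± 5.82 tags (SD, n = 3) and rose to 304 ± 46.8 (2.11 ± 0.17). The promoter of Hal, which encodes the histidine-degrading enzyme histidase, rose from 20.3 ± 9.67 to 162 ± 18.4 (3.01 ± 0.27). The other 5 of these peaks were near Olfr432 (3.66), Prag1 (3.26), Tasp1 (3.07), Gm7854 (3.85) and Ttc39c (2.94), on the log2 scale. All 10 were called in each of the 6 fits that left out a library.

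**Figure D3:**
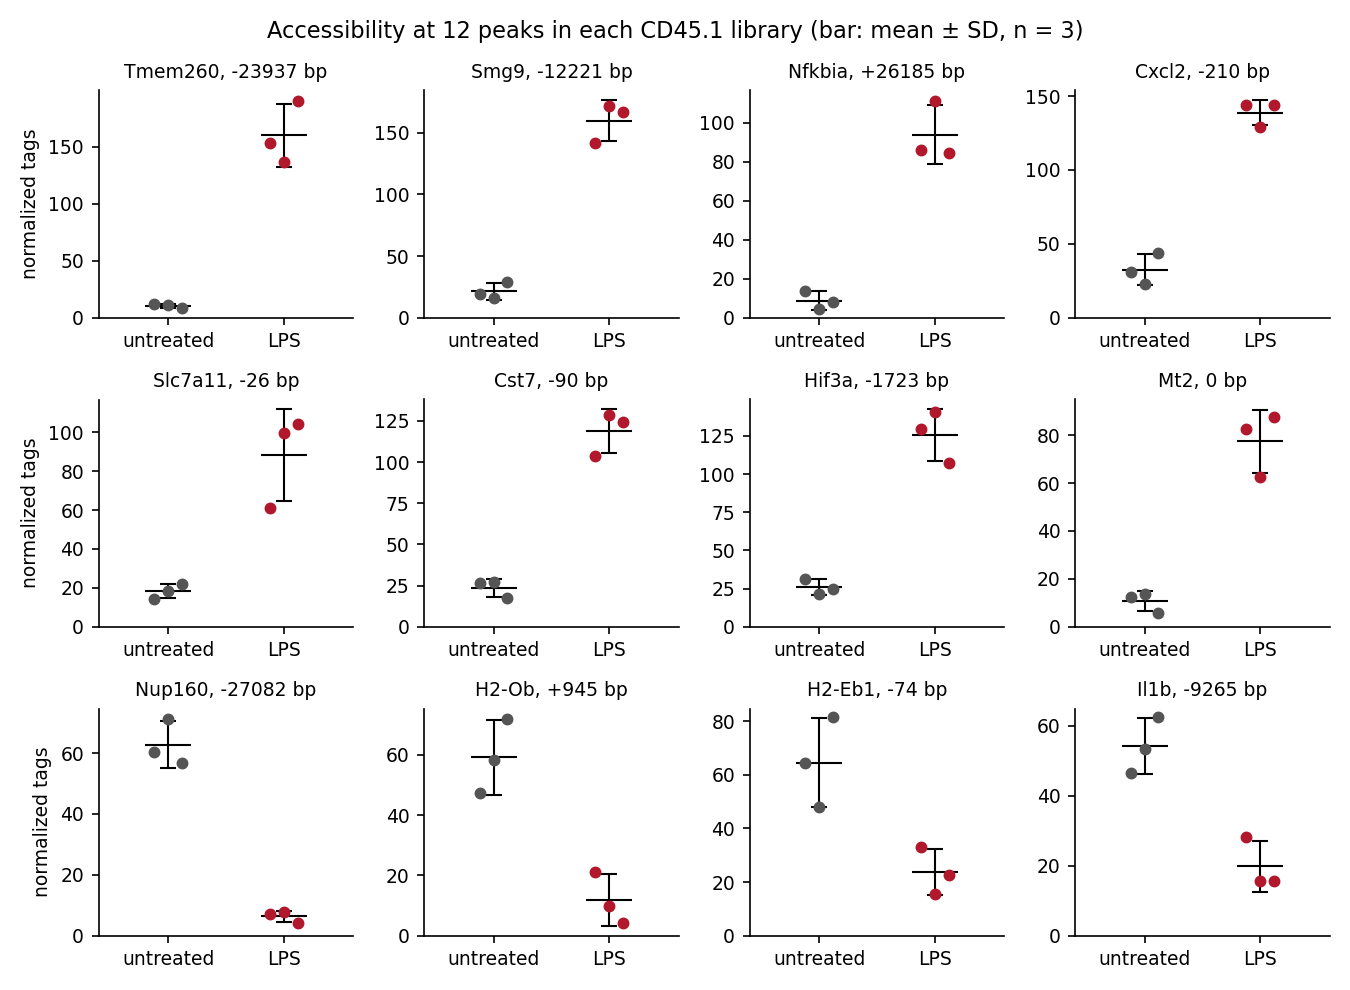
Normalized tags (y) of 12 peaks in each CD45.1 library of untreated and LPS mice (points), with the mean and SD (bars, n = 3). The Tmem260, Smg9, Nfkbia, Cxcl2, Slc7a11, Cst7, Hif3a and Mt2 peaks opened and the Nup160, H2-Ob, H2-Eb1 and Il1b peaks closed. The groups were apart at each, at Tmem260, Smg9 and Nup160 by the choice of those peaks. The others were chosen among called peaks, and the groups were apart at 98.2% of opened and 99.5% of closed peaks.

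The list of LPS sensing, which also holds the Toll-like receptor genes Tlr1, Tlr2, Tlr6, Tlr7 and Tlr9, had peaks of both kinds. Those that opened included peaks of a receptor and an inhibitor. Of 124 peaks at 22 genes, 11 opened (8.87%, against 6.13% of all tested) and 6 closed (4.84%, against 3.72%), with a median log2 fold change of 0.044 against -0.019 over all tested peaks. With the width offset 7 and 2 of these were called again. The promoter of Irak3, which encodes the kinase-dead inhibitor IRAK-M, held 28.9, 25.8 and 21.8 tags untreated and 70.7, 66.4 and 87.5 after LPS (1.55 ± 0.28, adjusted p = 1.69e-06). The promoter of Map3k7, which encodes the kinase TAK1, rose from 55.9 ± 8.06 to 142 ± 26.03 (1.33 ± 0.21). Map3k7 had 8 tested peaks, of which 2 opened and 2 closed. The promoter of the LPS co-receptor gene Cd14 rose by 1.33 ± 0.21 on the log2 scale and lost its call with the width offset (0.64). Peaks near Tab1 (902 bp, -1.79 ± 0.46) and Tab2 (-65409 bp, -1.41 ± 0.38), whose products bind TAK1, closed. Tlr4 itself had 4 tested peaks, of which 0 were called by DESeq2 or edgeR and 0 had an unadjusted p under 0.05.

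NF-kappaB genes with an opened peak included the inhibitor genes Nfkbia, Nfkbib and Tnfaip3 and the kinase genes Ikbke and Tbk1. Of 109 peaks at 24 genes, 12 opened (11.01%, against 6.13% of all tested) and 2 closed (1.83%, against 3.72%), with a median of 0.12. The offset left 7 opened and 2 closed. The intergenic peak at 26185 bp from Nfkbia, whose sequence is given above, held 13.8, 4.30 and 7.99 tags untreated and 85.998, 111 and 84.6 after LPS. This was the strongest change of the list (3.42 ± 0.35, adjusted p = 1.76e-19). The groups were apart, as at 98.2% of opened peaks. A peak near Bcl3, a nuclear I-kappaB protein, rose by 1.55 ± 0.27, and the promoter of Nfkbiz, another of that family, by 1.19 ± 0.23. An intronic peak of Tnfaip3, which encodes the deubiquitinase A20, rose by 1.44 ± 0.23 and lost its call with the width offset (0.95). The 2 closed peaks were both near Tnip2, which encodes an A20-binding protein, at 26336 bp (-1.34 ± 0.34) and -5609 bp (-1.85 ± 0.49).

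The genes of the AP-1 and CEBP factors had peaks of both kinds. Of 98 peaks at 18 genes, 3 opened (3.06%, against 6.13% of all tested) and 7 closed (7.14%, against 3.72%), with a median of -0.21. The distal Jun peak at -157297 bp rose from 38.4, 28.9 and 33.4 to 117, 160.1 and 135 tags (2.02 ± 0.23, adjusted p = 1.21e-15). It was the only one of the 3 opened peaks that kept its call with the width offset. None of the 7 closed peaks kept it, among them those near Cebpg (-1.58, -0.79 with the offset) and Fosb (-1.25, -0.91).

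Cytokine and chemokine loci had peaks of both kinds. Of 67 cytokine peaks, 7 opened (10.4%, against 6.13% of all) and 3 closed (4.48%, against 3.72%). Of 48 chemokine peaks, 8 opened (16.7%) and 2 closed (4.17%). The medians were -0.058 and 0.029. Opened peaks that were called again with the width offset numbered 4 and 5, and closed ones 2 and 1. The promoter of Cxcl2, a chemokine that attracts neutrophils, held 30.8, 22.7 and 43.6 tags untreated and 144, 129 and 144 after LPS (2.12 ± 0.24, adjusted p = 9.83e-16). A peak near Cxcl1, of the same function, rose from 13.8, 7.38 and 18.9 to 37.7, 50.8 and 53.6 (1.83 ± 0.38). All LPS libraries exceeded all untreated libraries at both, as at 98.2% of opened peaks. The promoter of the interferon-induced chemokine Cxcl10 rose by 1.19 ± 0.24 and lost its call with the width offset (0.84). The 3' UTR peak of the cytokine gene Osm (oncostatin M) rose by 1.40 ± 0.29. Inside Il15, an intronic peak rose by 1.97 ± 0.47, and by 2.76 without untreated mouse 6.

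The closed cytokine peaks were near Il1b, Tnf and Il12b, whose products are classical inflammatory cytokines. The upstream Il1b peak (-9265 bp) fell from 46.6, 53.5 and 62.5 to 28.3, 15.6 and 15.5 tags (-1.41 ± 0.35, adjusted p = 0.00127). The Tnf promoter fell by 1.20 ± 0.38 on the log2 scale (adjusted p = 0.0136), but was not called with the width offset (-0.70). It was also not called without LPS mouse 3 (adjusted p = 0.101) or without untreated mouse 4 (0.0638) or 5 (0.0836). A Tnf intron peak (1390 bp) had a log2 fold change of 0.96 ± 0.31, below the fold limit, so these 2 peaks lay in opposite directions. The Il12b peak at -17679 bp (-1.11 ± 0.35) was not called without LPS mouse 3 (adjusted p = 0.153) or untreated mouse 4 (0.09) or 5 (0.126). Both closed chemokine peaks belonged to Ccl6, a chemokine expressed at rest, and the one at -2823 bp fell from 45.02 ± 3.08 to 14.4 ± 6.70 (-1.58 ± 0.40).

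Feedback inhibitors had an opened peak near 9 of 22 genes. There were 131 peaks near suppressors of cytokine signalling (SOCS), dual-specificity phosphatases and RNA decay factors, with a median of 0.13. Of these, 13 opened (9.92%, against 6.13% of all) and 5 closed (3.82%, against 3.72%). With the width offset 10 of the opened and 1 of the closed peaks were called again. The peak 162223 bp from Dusp6, whose phosphatase inactivates ERK, rose from 20.1, 13.5 and 34.9 to 113, 129 and 98.8 tags (2.33 ± 0.29). A peak near Zfp36l2, which encodes an RNA decay factor, rose from 11.5 ± 2.88 to 62.9 ± 4.76 (2.46 ± 0.34). A Dusp2 peak rose by 2.92 ± 0.50, and by 3.82 without untreated mouse 6. Socs6 had a peak that opened (73884 bp, 2.15 ± 0.42) and one that closed (-38099 bp, -1.40 ± 0.34). Interferon genes were near the background, with 9 of 122 peaks opened (7.38%) and 7 closed (5.74%), or 7 and 2 also with the offset. The promoter of Gbp2, an interferon-induced GTPase, rose from 18.9, 12.9 and 13.1 to 44.8, 62.5 and 60.7 (1.89 ± 0.34). An intronic peak of the repressor Irf2 rose by 2.69 ± 0.34, and by 3.36 without untreated mouse 6. An intronic peak of Irf7 (1387 bp), an interferon-induced regulator of interferon genes, fell from 24.5, 18.4 and 18.9 to 4.71, 0 and 1.41 tags (-3.14 ± 0.81, adjusted p = 0.00169). It was not called with the width offset, its adjusted p was undefined without untreated mouse 4 or 5, and the value was -4.65 without LPS mouse 1.

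Effector and metabolic genes of activated macrophages had the largest opened share of the function lists. Of 99 peaks, 18 opened (18.2%, against 6.13% of all) near 14 of 26 genes, and 1 closed (1.01%, against 3.72%). The median log2 fold change was 0.30, and 13 of the opened and 0 of the closed peaks kept their call with the width offset. The promoter of Slc7a11, the cystine transporter, held 14.5, 18.4 and 21.8 tags untreated and 61.3, 99.6 and 104 after LPS (2.27 ± 0.30, adjusted p = 1.64e-11). The promoter of Ptgs2, the inducible cyclooxygenase of prostaglandin synthesis, rose from 23.3 ± 1.65 to 68.3 ± 10.2 (1.54 ± 0.29). The promoter of Clec4e, which encodes the lectin receptor Mincle, rose from 16.1 ± 7.03 to 54.5 ± 16.998 (1.76 ± 0.37). A distal peak of Met, the receptor of hepatocyte growth factor, rose by 1.75 ± 0.21. An intronic peak of Pfkfb3, a glycolysis regulator, rose by 1.05 ± 0.18 and lost its call with the width offset (0.69).

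Peaks near genes that glucocorticoids are known to induce opened at 11 of 115 (9.57%, against 6.13% of all tested). They closed at 3 (2.61%, against 3.72%), and the median of the list was 0.12. Called again with the offset were 7 of the opened and 1 of the closed peaks. The promoter of Mt2, a metallothionein that binds zinc, held 12.6, 13.5 and 5.81 tags untreated and 82.5, 62.5 and 87.5 after LPS (2.86 ± 0.34, adjusted p = 2.98e-14). A peak of Hif3a, a hypoxia-inducible factor subunit, rose from 31.5, 21.5 and 24.7 to 129.6, 141 and 107 (2.27 ± 0.25). The LPS libraries lay several times above the untreated ones at both peaks. A distal peak of Nr3c1, the glucocorticoid receptor gene itself, rose by 1.55 ± 0.27 and one near Rhob, a small GTPase, by 1.90 ± 0.27. Genes used in every cell had 1 opened (2.33%) and 3 closed (6.98%) of 43 peaks, with 1 and 2 left by the offset. Their median was -0.24. Of their 13 promoter peaks 1 was called, that of the elongation factor gene Eef2 (-1.66 ± 0.41).

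**Figure D4:**
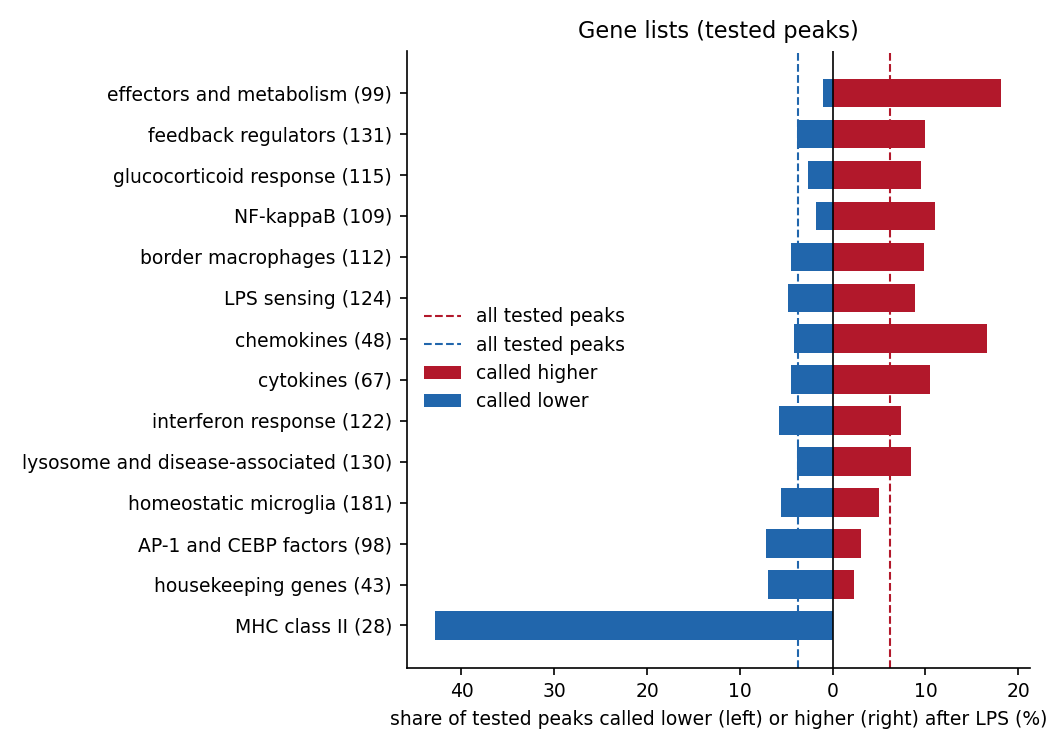
Share of tested peaks (x, %) that opened or closed after LPS in CD45.1 cells for each gene list (y), with the shares over all tested peaks (6.13% opened and 3.72% closed) as lines. The MHC class II list has 42.9% closed and 0 opened peaks, and the effector list 18.2% opened.

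The largest closed share of any list with over 10 peaks was that of MHC class II, whose genes present antigen to CD4+ T cells. Of 28 peaks at 10 genes, 12 closed (42.9%, against 3.72% of all). By DESeq2, by edgeR and at an unadjusted p under 0.05, 0 opened. With the width offset 7 of the 12 kept their call, and some of the others had an undefined adjusted p. The closed peaks lay at 6 genes and included 5 of 7 promoter peaks, and the median log2 fold change of the list was -0.87. Summed over the list, the untreated libraries held 1117 to 1435 normalized tags and the LPS libraries 601 to 820, so the groups did not overlap. The intronic H2-Ob peak at 945 bp, which belongs to the gene of the DO beta chain, fell from 47.2, 58.4 and 71.9 to 21.2, 9.76 and 4.23 tags. This was the smallest adjusted p of the list (-2.27 ± 0.42, adjusted p = 3.81e-06), with LPS mouse 1 the highest of the LPS libraries, and the value was -3.15 without that mouse. The promoter of H2-Eb1, the E beta chain, fell from 64.2, 47.95 and 81.4 to 32.99, 15.6 and 22.6 (-1.39 ± 0.34, adjusted p = 0.000875). The peak at -5458 bp of H2-Ab1, the A beta chain, fell from 59.8, 52.9 and 74.8 to 37.7, 15.6 and 14.1 (-1.42 ± 0.35), and was at -2.07 without LPS mouse 1.

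Among the other called peaks of the list, 3 with fewer tags had larger log2 fold changes than most. With the width offset their adjusted p was undefined, so they could not be called, and their log2 fold changes were -1.93 to -1.64. These were the H2-Ob promoter (17.3 ± 4.11 to 2.90 ± 2.95 tags, -2.41 ± 0.75) and intronic peaks of H2-Eb1 at 7740 bp (20.4 ± 2.47 to 4.16 ± 4.12, -2.13 ± 0.66) and H2-DMa at 4879 bp (18.2 ± 1.41 to 4.72 ± 2.70, -2.04 ± 0.66). Peaks of H2-Ob at 9989 bp (-1.61 ± 0.40), H2-Eb1 at -951 bp (-1.33 ± 0.42) and H2-Ab1 at -1514 bp (-1.04 ± 0.32) fell too, the last without its call under the offset. The H2-Ab1 promoter fell from 52.1 ± 16.5 to 21.999 ± 7.75 (-1.20 ± 0.37), and that of H2-DMb1, a chain of the peptide exchange factor DM, from 42.3 ± 8.44 to 19.3 ± 4.84 (-1.11 ± 0.38). The H2-Aa promoter, at 50.6 ± 12.8 untreated and 25.4 ± 6.36 after LPS, had an adjusted p of 0.0303 and lay just inside the 2-fold limit (-0.98). A peak at -3968 bp of Ciita, the master regulator of the class II genes, fell by 1.26 ± 0.46 (adjusted p = 0.042) and was not called with the width offset. The 6 peaks of Cd74, the invariant chain, were not called by DESeq2 or edgeR (1 had an unadjusted p under 0.05), and its promoter held 59.99 ± 18.6 tags untreated and 33.3 ± 13.7 after LPS (adjusted p = 0.0797). The number of closed MHC class II peaks depended on single libraries. It was 13, 4 and 5 without LPS mouse 1, 2 and 3, and 6, 9 and 5 without untreated mouse 4, 5 and 6. These genes lie in 1 region of chromosome 17 (except Cd74 and Ciita), and their peaks are not independent.

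Outside this locus the strongest closings were near genes of various functions. The Nup160 peak (-27082 bp) fell from 60.4, 71.3 and 56.7 to 7.07, 7.81 and 4.23 normalized tags (-3.32 ± 0.48, adjusted p = 9.73e-10). At Psap, which encodes the precursor of the saposins of lysosomal lipid breakdown, an intronic peak fell from 72.99, 84.8 and 71.9 to 30.6, 15.6 and 15.5 (-1.85 ± 0.33). In both every LPS library was below every untreated one, as the choice of these peaks required. Another 7 of the 10 closed peaks with the smallest adjusted p were near Mir6516, 4930592I03Rik, Arhgap5, 1700019O17Rik, Ttc7, Ccm2 and Xirp1, with log2 fold changes from -3.70 to -2.16. Leaving out LPS mouse 1 moved the 4930592I03Rik value to -4.33 and the Ttc7 value to -3.59. These 9 held their call in each fit that left out a library.

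Homeostatic microglia genes were near the background in both directions. Of 181 peaks, 9 opened (4.97%) and 10 closed (5.52%), with a median of -0.19. With the width offset 4 of the opened and 2 of the closed peaks were called again. Cx3cr1, the fractalkine receptor gene, held one of each. Its promoter fell from 75.5, 78.7 and 58.1 to 31.8, 44.9 and 19.8 tags (-1.18 ± 0.31, adjusted p = 0.00196, and 0.0542 without LPS mouse 3). Its peak at 18713 bp rose from 6.92, 7.38 and 14.5 to 32.99, 35.1 and 36.7 (1.88 ± 0.43). The strongest Cx3cr1 peak, at 9413 bp, held 73.1 ± 13.5 and 75.4 ± 20.3 tags (adjusted p = 0.944). Distal peaks of the transcription factor genes Mef2a (1.24 ± 0.24) and Mef2c (1.24 ± 0.23) rose, the second without its call under the width offset.

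Genes of disease-associated microglia, lipid handling and lysosomes had 11 of 130 peaks opened (8.46%, against 6.13% of all tested). The closed peaks numbered 5 (3.85%, against 3.72%), and the median was -0.16. Called with the offset too were 8 of the opened and 1 of the closed peaks. The Ctsl peak shown above (-27741 bp) rose from 3.78, 1.84 and 4.36 to 31.8, 66.4 and 55.02 tags (3.94 ± 0.51, adjusted p = 4.01e-12). The promoter of Cst7, which encodes the cathepsin inhibitor cystatin F, rose from 26.4, 27.1 and 17.4 to 104, 129 and 124 (2.31 ± 0.26). At both the lowest LPS library was above the highest untreated one, as at 98.2% of opened peaks. Intronic peaks of Tfec, a lysosomal gene regulator (1.41 ± 0.23), and of Lgals3, which encodes galectin-3 (1.66 ± 0.28), rose too. The promoter of the integrin gene Itgax fell by 2.55 ± 0.59 (its adjusted p was undefined without untreated mouse 5). An intronic peak of the protease gene Ctsd fell by 2.55 ± 0.59, was not called with the width offset and was at -3.62 without LPS mouse 1.

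Genes that mark border and peripheral macrophages, several of which the study names for grafted cells, had 112 tested peaks. Of these, 11 opened (9.82%, against 6.13% of all tested) and 5 closed (4.46%, against 3.72%), with a median of 0.11. The offset left 6 opened and 2 closed. Of 7 tested peaks of Msr1, which encodes a scavenger receptor, 3 were called and rose. The peak at -9221 bp rose from 23.3, 24.6 and 20.3 to 73.04, 83.9 and 83.2 tags (1.81 ± 0.28) and the promoter peak by 1.45 ± 0.28. An intronic peak of Cd36, a fatty acid receptor, rose by 1.30 ± 0.27. In Cmah, an enzyme of sialic acid synthesis, an intronic peak fell from 32.8 ± 2.49 to 9.24 ± 4.34 (-1.84 ± 0.48). A distal peak of the transcription factor gene Runx3 fell by 1.66 ± 0.30 and lost its call with the width offset (-0.94).

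The study named LPS-responsive genes from RNA of the same experiment, so their loci are not independent evidence of a direction. Each list below mixes genes whose RNA the study reports as induced with genes whose RNA it reports as reduced. A pooled count therefore cannot show agreement or conflict. At the 6 genes the study names for both populations, 3 of 26 peaks opened (11.5%) and 3 closed (11.5%). At the 8 named for grafted cells, 2 of 20 opened (10%) and 3 closed (15%). At the 6 named for host microglia, 2 of 28 opened (7.14%) and 1 closed (3.57%). Over all tested peaks the shares were 6.13% and 3.72%. With the offset the numbers of opened and closed peaks in the 3 lists were 2 and 1, 2 and 1, and 1 and 1. In the first 2 lists, Tnfaip3 and Clec4e, induced in RNA, had opened peaks, and Cmah and Aif1, reduced in RNA, closed ones. Against the RNA direction, Tnf and Irf7, induced, had a closed peak each, and Cd36, reduced, an opened one. Cx3cr1, reduced in RNA, had 1 of each. At most loci of the 3 lists the strongest peak, the one with the highest mean normalized tags, was not called. For Ccl5 (-13927 bp) the log2 fold change was -0.96 ± 0.34 (adjusted p = 0.0349), inside the fold limit. For the promoters of Irf7 (0.088 ± 0.31), Pirb (0.46 ± 0.34) and Spp1 (0.19 ± 0.34) adjusted p values were 0.882, 0.379 and 0.761. Spp1 had 4 untreated and 6 LPS peaks, of which 3 pairs were tested and 0 called. The study describes induced Spp1 peaks far upstream of the start site in challenged grafted cells, and peaks without a partner were not analysed here. The strongest peaks of Trem2 (-0.40), Tnfaip3 (-0.15), Cmah (0.068), Cd36 (0.47), Gpr65 (-0.17), Il12b (-0.26), Sall1 (-0.071) and Upk1b (-0.21) were not called either, nor were those of Tnf and Cx3cr1 given above. The strongest peak was called at Clec4e, Tlr2 and Aif1. That of Tlr2 (-43658 bp), a receptor of bacterial lipoproteins, rose from 68.6, 55.3 and 119 to 221, 259.6 and 195 tags (1.48 ± 0.35). That of Aif1 (3351 bp), whose product IBA1 marks microglia and macrophages, fell from 46.6, 41.8 and 50.1 to 28.3, 17.6 and 19.8 (-1.04 ± 0.35, adjusted p = 0.0217). The Aif1 call was lost with the width offset (-0.86) and in each fit that left out a library other than LPS mouse 1 (adjusted p from 0.0634 to 0.116). At Apoe (-0.57) and Ms4a7 (-0.95), which the study names for grafted cells at rest, the strongest peak was not called. For Isg15, Mgl2 and Marco no peak was tested, with 0, 1 and 6 peaks in the untreated and 0, 1 and 7 in the LPS table.

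Markers of cells that the gate should leave out had few tested peaks. Of 13 neutrophil genes, 6 had 9 tested peaks, of which 1 opened and 1 closed (11.1% each, against 6.13% and 3.72% of all tested). Their summed level was 189 to 208 normalized tags untreated and 196 to 247 after LPS, so the groups overlapped. Mpo had 0 peaks in both tables, and S100a8, Ly6g, Camp, Cxcr2 and Lcn2 had 0 in the untreated and 1 or 2 in the LPS table. The opened one was the promoter of the collagenase gene Mmp8 (2.61 ± 0.35). Blood monocyte markers had 1 opened and 1 closed of 19 peaks (5.26% each), the closed one not with the offset. Their summed levels were 646 to 851 and 779 to 885. T and NK cell, B cell, astrocyte and neuron markers had 0 calls among 5, 5, 18 and 3 peaks by DESeq2. At an unadjusted p under 0.05 there were 1, 0, 1 and 1, and edgeR called 1 neuron marker peak and none of the others. The summed level of endothelial markers was higher after LPS, at 144 to 188 tags untreated and 258 to 279 after LPS over 7 peaks. Of these, 3 opened (42.9%, against 6.13% of all tested), 2 near Flt1 and 1 near Cldn5. The median log2 fold change of the 7 peaks was -0.41, and the opened Flt1 peak at -22200 bp lost its call with the width offset (0.96). Their part in the opened peaks was not tested.

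Host microglia of the same mice were compared in 1 model of all 12 libraries, which gives both populations the same spread. In that model 2625 peaks opened in CD45.1 cells (6.9%) and 2951 in CD45.2 cells (7.76%), and 1937 (5.09%) and 1436 (3.78%) closed. Opened in both were 1737 peaks, or 66.2% of those of CD45.1 and 58.9% of those of CD45.2 cells. Closed in both were 691 (35.7% and 48.1%), and 0 peaks were called in opposite directions. Peaks that opened in CD45.1 cells had a median log2 fold change of 1.44 there and 1.38 in CD45.2 cells. For the peaks that closed, the medians were -1.37 and -0.90, and a value chosen in 1 population is larger there in part by that choice. Both populations were counted over the same peaks of each treatment, so an effect of peak table or width would move both alike. The overlap and these medians were not computed with the width offset. The MHC class II list had 12 closed peaks in CD45.1 and 2 in CD45.2 cells, with medians of -0.86 and -0.35. The difference itself was called at 0 of its peaks by DESeq2 and edgeR (1 at an unadjusted p under 0.05).

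The response differed between the populations at few peaks, and there mostly by a smaller rise in grafted cells. The interaction was called (adjusted p under 0.05) at 88 peaks with a lower log2 fold change in CD45.1 cells (0.231%) and at 7 with a higher one (0.0184%). With the mouse as a replicate block these numbers were 50 and 1. Without CD45.1 untreated mouse 6 they were 56 and 4, without CD45.2 untreated mouse 5 the lower ones were 42, and without CD45.2 LPS mouse 3 or CD45.2 untreated mouse 4 the higher ones were 4. Of the 88 peaks, 86 opened in host microglia and 24 in CD45.1 cells, with medians of 2.58 and 0.55. At rest all 88 had a higher mean in CD45.1 than in CD45.2 cells, as did 51.1% of all tested peaks. At 87 every untreated CD45.1 library was above every untreated CD45.2 library, as at 17.6% of all tested peaks. After LPS the libraries of both populations overlapped at 51 of the 88, and the share over all tested peaks was not computed. The same untreated libraries enter both measures, so this is a description of the levels. Testing also required a minimum tag count in at least 1 CD45.1 library, so peaks low in all of those libraries were left out. With no filter on counts, 89 pairs had a lower response in CD45.1 cells, among them all 88, and 7 a higher one. The shares at rest were not computed for that fit, and peaks without a partner stayed outside it.

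Tlr2 gives an example. In the 12-library model its peak at -43658 bp held 67.5, 54.8 and 117 normalized tags in CD45.1 cells of untreated mice and 219.8, 258 and 192 after LPS. In CD45.2 cells it held 15.3, 11.1 and 16.6 and 155, 152 and 160.1. Host microglia thus began lower, and the log2 difference of the responses (CD45.1 minus CD45.2) was -1.97 ± 0.35 SE (adjusted p = 0.000138). The intronic Cd36 peak at 8874 bp held 39.6, 30.5 and 46.999 and 70.1, 89.2 and 129.7 in CD45.1, and 2.18, 0.530 and 3.31 and 35.5, 25.4 and 43.1 in CD45.2 cells (difference -2.86 ± 0.63). The promoter of Lilrb4a, an inhibitory receptor gene, was not called in CD45.1 cells, at 53.3, 58.5 and 56.97 and 58.4, 69.8 and 79.5. In CD45.2 cells it rose from 13.1, 12.7 and 11.04 to 81.2, 68.5 and 51.9 (difference -2.12 ± 0.38, adjusted p = 0.000102). Lilrb4a and the peaks listed in the closing section, other than those of Tlr2, Cd36, Hal and Irf2, were chosen after their values were seen. The border macrophage list held 7 of the 88 peaks and opened at 22 of 112 peaks in CD45.2 against 11 in CD45.1 cells. Over all tested peaks the shares were 0.231% for a lower response and 7.76% and 6.9% for opening. Several genes of the list are ones the study names as higher in grafted cells at rest. These counts are therefore a description.

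**Figure D5:**
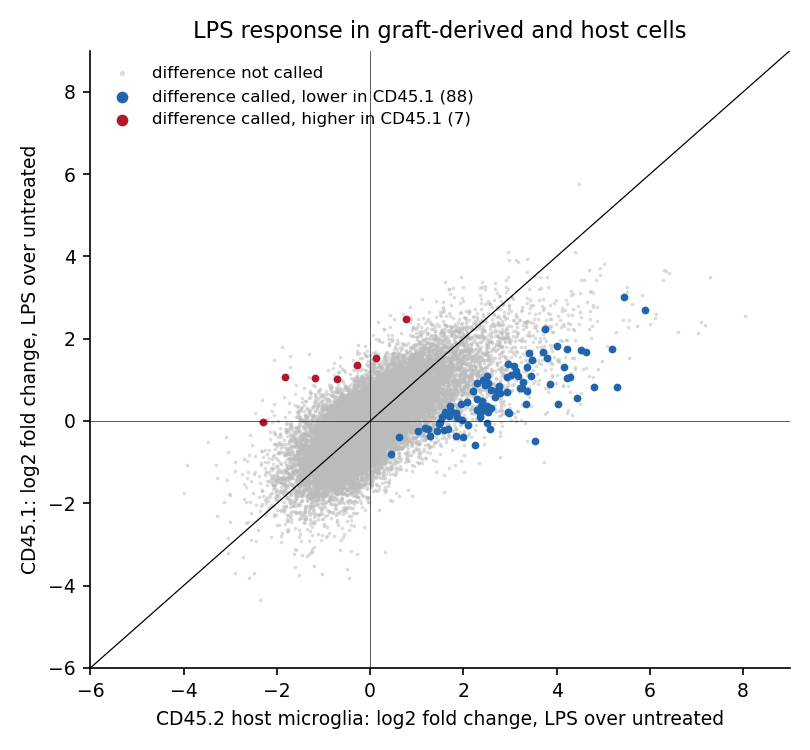
Log2 fold change of LPS over untreated in CD45.2 host microglia (x) and in CD45.1 cells (y) for each tested peak, both from the 12-library model, with the line of equality. Coloured points are the 88 peaks with a lower and the 7 with a higher response in CD45.1 cells, and the 88 lie to the right of the line, as the sign of the difference fixes.

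Of the distal peaks that opened in host microglia, 36.4% held AP-1 and 25.05% CEBP. Among the 79 distal peaks with a lower response in CD45.1 cells, 46.8% held CEBP and 32.9% AP-1, against 12.7% and 12.4% of all distal peaks.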

How the data were processed

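ATAC-seq libraries were made from CD45.1 and CD45.2 cells of 3 untreated and 3 LPS-challenged mice. Per the submitters' processing notes and the study's methods, reads were demultiplexed with bcl2fastq 2.17.1.14, and Bowtie2, Picard 1.108, HOMER and the mouse build mm9 were used. Any shift of read ends for the transposase is not given in the sources used here. Without it each tag lies some bases off its cut, a small error except for narrow peaks. The authors called peaks in each library with HOMER (fragment length 300 bp, false discovery rate 0.001, 4-fold over the local background, per the file headers). The study's methods give a looser false discovery rate and a filter on reproducibility between replicates, which these headers do not show. The HOMER score deposited with each listed peak is its number of tags, and it was used here only to sum the tags lying within peaks. They then merged the lists of each treatment and counted tags per merged peak. These deposited values are unnormalized estimated counts in steps of 0.5 tag, since each mate counted 0.5, and they were rounded to whole numbers for testing.

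Peaks of the tables were matched by at least 50% reciprocal overlap with bedtools 2.31.1, and pairs exceeding 10 tags in 1 or more CD45.1 libraries were tested with DESeq2 1.42.0 (R 4.3.3, Wald test, median-of-ratios size factors, Benjamini-Hochberg over all tested peaks), the tool the study names. Only the 6 CD45.1 libraries entered the main comparison. The difference between populations was the interaction in a model of all 12 libraries. edgeR 4.0.16 was an alternative. Depth was 3624600 to 4390800 tags after LPS and 8439800 to 8616900 untreated, and each arm has 3 libraries, so calls at low peaks carry more counting error after LPS. P-values measure the spread between these mice. The pipeline was tested on simulated data. GC content and motifs were read from mm9 with pysam 0.24.0 in the 200 bp around the centre of each LPS peak, and promoter peaks were set apart from all others (distal).

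The gene lists, motifs and the comparison itself were chosen with earlier results of these data known. Peaks named in the text were the 10 with the smallest adjusted p in each direction (1 per gene, libraries apart, called with the width offset too), up to 4 called peaks per list and direction, and the strongest peak of each locus the study names, with exceptions stated. Every MHC class II peak could be named. Of the closed peaks that met this rule, 1 is not reported here. Mice of the 2 treatments share no number. CD45.1 and CD45.2 cells of 1 number came from the same animal, so the numbers pair the samples. Their deviations from the group means correlated by 0.120, 0.068 and 0.120 (mice 4, 5 and 6) and -0.144, 0.039 and 0.050 (mice 1, 2 and 3).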

Additional observations from a re-analysis of the deposited data

Results flagged for a closer look

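The LPS response differed between CD45.1 and CD45.2 cells at 88 peaks with a lower and 7 with a higher log2 fold change in CD45.1 cells, by DESeq2's interaction test over 12 libraries. Each peak below was picked out because its 2 responses differed by that test. Values are the log2 difference of the responses, CD45.1 minus CD45.2, with its adjusted p.

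Among peaks named for the response itself, the difference was -2.42 at the Hal promoter (adjusted p = 0.0121), -3.19 at Irf2 (71760 bp, 0.0181), -2.86 at Cd36 (8874 bp, 0.0041) and -1.97 at Tlr2 (-43658 bp, 0.000138). Without CD45.2 untreated mouse 5, the adjusted p was 0.369 at Hal, 0.224 at Irf2 and 0.179 at Cd36. Without CD45.1 untreated mouse 6 it was 0.119 at Hal and 0.24 at Irf2, and without CD45.2 untreated mouse 6 it was 0.112 at Irf2. The Tlr2 call held in all 12 fits that left out a library. At Irf2 the CD45.2 cells of untreated mice were at or under 3 tags, so their rise is given as at least 29.1-fold, and the fitted difference is no bound.

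The strongest differences in the same direction were near Dppa3 (9082 bp, -2.93, adjusted p = 1.11e-07, and 24328 bp, -2.46), a gene of germ cells and early embryos. They were followed by Ms4a4d (22958 bp, -4.0), A230028O05Rik (-125712 bp, -2.26), Fam49a (-38595 bp, -2.8) and the Lilrb4a promoter (-2.12). The first Dppa3 peak held 48.3, 56.1 and 70.5 normalized tags in CD45.1 cells of untreated mice and 75.98, 73.7 and 80.9 after LPS. In CD45.2 cells it held 6.54, 4.77 and 7.72 and 60.9, 55.8 and 72.1. The Ms4a4d peak held 26.6, 25.6 and 36.3 and 19.9, 34.9 and 11.2 in CD45.1, and 2.18, 1.06 and 3.86 and 20.3, 26.6 and 32.5 in CD45.2 cells. After LPS the levels of the populations thus came near each other at Dppa3, from CD45.2 levels far lower at rest. For Ms4a4d the adjusted p was undefined in 3 of the 12 fits that left out a library, and the calls of the other 5 peaks of this group held in all 12. Scaled to total tags, the call was lost at A230028O05Rik (adjusted p = 0.0801), Hal (0.0943) and Irf2 (0.0858), and the adjusted p was undefined at Ms4a4d.

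The 7 peaks with a higher response in CD45.1 cells were less stable. At Dock4 (138932 bp) the difference was 1.41, called in all 12 such fits, with an adjusted p of 0.0916 with the mouse as a replicate block. The peak rose from 38.4, 32.3 and 34.2 to 103, 109 and 94.8 in CD45.1 cells and held 81.8, 82.6 and 64.004 and 96.4, 88.8 and 70.4 in CD45.2 cells. The others were near Rufy3 (8497 bp, 1.71), G530011O06Rik (-19276 bp, 2.29), Slc1a3 (68393 bp, 2.23), Inpp4b (470111 bp, 2.88), St3gal1 (75391 bp, 1.63) and Mxi1 (-25874 bp, 1.73). Each was lost in at least 1 fit that left out a library, and with the block only G530011O06Rik kept its call (adjusted p = 0.0465), as it did when scaled to total tags (0.045). Groups of 3 samples are too small for a check of single outlying libraries.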

How the results depend on the processing

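No paired analysis was possible because the untreated and LPS mice share no number, for the main comparison. With the mouse as a replicate block, 50 peaks had a lower and 1 a higher response in CD45.1 cells, and no other call was tested with the block. At the stricter limit (adjusted p under 0.01 and more than 4-fold) 437 peaks opened and 124 closed. With 80% reciprocal overlap 527 opened and 328 closed, of 13835 tested, so fewer pairs entered. edgeR called 2306 closed peaks and 16 with a higher response in CD45.1 cells, and the cause was not tested. Scaling to total tags left 30 peaks with a lower and 1 with a higher response in CD45.1 cells. Leaving out 1 library at a time gave 1656 to 2602 opened, 565 to 1854 closed, 42 to 104 lower-response and 4 to 10 higher-response peaks. Scaling to total tags, size factors from promoter peaks, TMM factors, a GC offset, no filter on counts and a mean count of at least 20 kept both main counts within 1.5 times. So did the width offset for its own counts (1881 opened and 1006 closed), although only the shares given above were the same peaks. Of the 137 called named peaks, 83 kept their call in every alternative other than the stricter limit and the 80% overlap, and 0 changed direction. The lower depth after LPS limits what a low level there can show.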

Other observations

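Several genes had many called peaks. Gm17746 had 9 opened among 31 tested peaks, 1700016G22Rik 8 of 23, Tns3 (tensin 3, an adhesion protein) 7 of 24 and Tnfrsf1b (a TNF receptor) 5 of 10. Of closed peaks, the highest count was 5 of 7 near Coro6. Over all tested peaks, 6.13% opened and 3.72% closed. These genes were picked for their counts, after values were seen, and peaks of 1 gene are not independent.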
